A study of Rattus norvegicus with 22 samples.

Results

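Interferon-stimulated genes were followed in the kidneys of 22 male PKD/Mhm (Cy/+) rats, with 9 genes listed by name, Isg15, Ifit1, Ifit2, Ifit3, Mx1, Mx2, Oas1a, Irf7 and Rsad2. All 9 were among the 17334 genes of the files, and all 9 passed the filter on low counts that left 12867 genes to test. The PKD/Mhm (Cy/+) rat carries 1 mutated copy of Anks6 and develops slowly growing kidney cysts, and every rat here was such a heterozygote aged 8 months. The 4 groups were untreated (labelled Control, n = 6), intraperitoneal ASC (labelled IP_ADSC, n = 6), intravenous ASC (labelled IV_ADSC, n = 6) and CM (n = 4), where ASC are human adipose-derived stromal cells and CM, as the study describes it, is the medium these cells had conditioned. Treated rats received a monthly dose over 6 months, 2000000 cells per injection in both ASC groups, and CM rats received no cells. The route of CM is given differently in the study's own descriptions and is not used here. The study describes the sample as total RNA of whole tissue from the left kidney. How much of the organ was used is not stated, so a level averages over the cells of the tissue taken. Fewer cells of a type cannot be told apart from less RNA per cell. No healthy (+/+) rats were analysed here, so what the mutation itself does to these genes is outside the comparisons.

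Type I interferons bind the receptor of Ifnar1 and Ifnar2, and kinases at the receptor then activate transcription factors, among them a complex that holds Stat2 and Irf9. This complex binds a short DNA element, the interferon-stimulated response element (ISRE), in front of the genes studied here, whose products block viruses at several steps. In kidney disease the same genes are known as a readout of interferon signalling in tubule, endothelial and immune cells. Interferon gamma acts through another receptor and a different DNA element, GAS.

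The promoters of the listed genes are shown because the ISRE is the feature these genes are known to share. Promoter sequence from RefSeq (build GRCr8) was at hand for 5 of the 9 genes, and each is printed from 150 bases before the start of the transcript up to the start, in the direction of transcription. Capitals mark every match to the core letters of the ISRE, GAAANNGAAA or, on the other strand, TTTCNNTTTC. The windows lie at chr1:205800024-205800173 on the minus strand for Irf7, chr1:241527176-241527325 on the plus strand for Ifit3, chr12:41330316-41330465 on the plus strand for Oas1a, chr6:48788121-48788270 on the minus strand for Rsad2 and chr11:50294607-50294756 on the minus strand for Mx1.
Irf7: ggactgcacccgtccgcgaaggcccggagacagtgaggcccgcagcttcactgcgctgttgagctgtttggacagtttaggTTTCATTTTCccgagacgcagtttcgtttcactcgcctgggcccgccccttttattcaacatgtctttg
Ifit3: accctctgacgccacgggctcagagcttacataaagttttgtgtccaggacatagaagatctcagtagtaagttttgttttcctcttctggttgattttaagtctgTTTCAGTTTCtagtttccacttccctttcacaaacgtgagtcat
Oas1a: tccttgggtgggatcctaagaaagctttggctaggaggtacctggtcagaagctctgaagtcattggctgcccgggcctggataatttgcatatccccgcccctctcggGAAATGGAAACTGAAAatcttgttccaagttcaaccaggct
Rsad2: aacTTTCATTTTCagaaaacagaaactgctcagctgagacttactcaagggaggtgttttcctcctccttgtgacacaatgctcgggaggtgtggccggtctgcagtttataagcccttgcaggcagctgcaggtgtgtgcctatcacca
Mx1: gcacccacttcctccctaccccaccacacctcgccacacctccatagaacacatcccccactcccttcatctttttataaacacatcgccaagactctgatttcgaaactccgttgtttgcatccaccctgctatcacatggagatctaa

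The core stood at -69 in Irf7, -44 in Ifit3 and -147 in Rsad2, counted as the position of its first base before the transcript start. In Oas1a there were 2 overlapping matches, at -41 and -35. No match was found in the Mx1 window, which says only that these letters are not there. In the full table window, from 250 bases before to 50 after the start, 4 of 5 listed genes (80.0%) held the core, against 19 of 34 promoters of other interferon-stimulated genes (55.9%) and 1312 of all 33469 promoters (3.92%). The GAS letters, TTCNNNGAA, which read the same on both strands, were found in 1 of 5 listed genes, at -199 in Oas1a, in 6 of 34 promoters of the other interferon-stimulated genes (17.6%) and in 8.87% of all promoters. A match of letters is a description of the sequence and not a measured binding site.

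All 9 genes were expressed in these kidneys, at levels that differed widely between genes. On the TPM scale, which divides by transcript length and so allows genes to be compared, mean levels over the 22 rats were 65.0 for Isg15, 58.8 for Irf7, 37.6 for Mx2, 20.04 for Oas1a, 15.9 for Mx1, 13.2 for Ifit2, 9.27 for Ifit3, 8.02 for Rsad2 and 1.08 for Ifit1. Irf7 was above Mx2, Mx2 above Oas1a and Rsad2 above Ifit1 in 22 of 22 rats. The neighbours Isg15 and Irf7 kept their order in 17 rats, Oas1a and Mx1 in 19, Mx1 and Ifit2 in 15 and Ifit2 and Ifit3 in 19, while Ifit3 was above Rsad2 in only 10 of 22, so that this last pair had no stable order. Ifit1 had only 6 to 42 counts per rat, and its values are the least certain of the 9.

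Each rat was described by CPM, the count scaled by the library total after TMM correction, from libraries of 12195682 to 14734772 counts. Of all genes tested, 0 of 12867 (0.0%) passed an adjusted p of 0.05 in any of the 6 comparisons among the 4 groups (edgeR quasi-likelihood test with Benjamini-Hochberg adjustment), and accordingly 0 of 9 interferon-stimulated genes did. At an unadjusted p below 0.05 the counts of all genes were 500 after i.p. ASC (3.89%), 1133 after i.v. ASC (8.81%) and 849 after CM (6.6%), each against untreated. Among the 9 genes the corresponding counts were 0, 1 and 0. DESeq2 called 0, 28 and 4 genes of 15266 in the same comparisons, none of them among the 9. Defining kidney markers were present in every rat, with Umod (thick ascending limb) at 1294 to 7943 CPM and Lrp2 (proximal tubule) at 512.5 to 2308 CPM, and so were leukocyte markers.

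Isg15 encodes a ubiquitin-like protein that is attached to other proteins during an interferon response. In the untreated group it ranged from 15.6 to 39.1 CPM with a median of 18.8, in i.p. ASC from 15.9 to 29.6 (median 24.4) and in i.v. ASC from 17.46 to 26.4 (median 22.2). The 4 CM rats had 14.1, 23.03, 19.2 and 38.5 CPM. All groups overlapped, and the highest value of the untreated group and that of the CM group were each far above the rest of their group. The log2 fold changes against untreated were 0.10 ± 0.23 (SE) after i.p. ASC, 0.020 ± 0.23 after i.v. ASC and 0.12 ± 0.26 after CM, each smaller than its error.

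Irf7, the transcription factor that amplifies the making of type I interferon, showed the same shape at a higher count. Its range was 59.8 to 150 CPM in untreated rats (median 70.6), 50.1 to 114 in i.p. ASC (median 85.7) and 57.3 to 78.2 in i.v. ASC (median 73.9). The CM rats had 44.2, 72.3, 89.7 and 159 CPM. The i.v. ASC rats lay close together, with 1 rat just below every untreated rat, and no group separated from another. The log2 fold changes were -0.032 ± 0.26, -0.25 ± 0.26 and 0.13 ± 0.29 in the same order of treatments.

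The IFIT genes encode proteins of tetratricopeptide repeats that bind foreign RNA and slow its translation. Ifit2 ranged from 26.3 to 62.5 CPM in untreated rats (median 32.7), from 19.4 to 42.9 in i.p. ASC (median 29.4) and from 22.7 to 39.4 in i.v. ASC (median 28.9), and the CM rats had 18.9, 26.96, 41.4 and 70.1. Ifit3 ranged from 7.68 to 29.0 CPM (median 10.3), from 6.98 to 15.8 (median 13.4) and from 6.83 to 24.4 (median 10.8) in the same order, and the CM rats had 7.24, 7.54, 9.90 and 36.6. For both genes 1 untreated and 1 CM rat stood above all others, with 1 i.v. ASC rat next for Ifit3. Ifit1 ranged from 0.95 to 2.75 CPM in untreated rats (median 1.85), from 1.05 to 1.90 in i.p. ASC (median 1.40) and from 0.48 to 2.40 in i.v. ASC (median 1.37), and was 1.75, 1.28, 1.51 and 2.21 in CM. The highest Ifit1 value belonged to another untreated rat, with 42 counts against 24 in the untreated rat that was highest for Ifit2 and Ifit3. The same CM rat was the highest of its group for all 3 genes. At such counts the order of rats for Ifit1 is uncertain. The log2 fold changes of the 3 IFIT genes ran from -0.31 to -0.18 after i.p. ASC, from -0.42 to -0.11 after i.v. ASC and from -0.11 to 0.15 after CM, with standard errors of 0.27 to 0.46.

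Mx1 and Mx2 encode dynamin-like GTPases that trap viral components. Mx1 ranged from 21.7 to 83.3 CPM in untreated rats (median 29.4), from 16.6 to 54.3 in i.p. ASC (median 33.7) and from 21.01 to 45.5 in i.v. ASC (median 33.1), and the CM rats had 18.5, 29.6, 40.8 and 114. The highest CM rat was above every other rat of the study. Mx2 ranged from 48.1 to 143 CPM (median 71.3), from 48.7 to 95.2 (median 66.6) and from 50.1 to 74.4 (median 62.9), and the CM rats had 48.4, 56.1, 72.9 and 122. Both genes again had their top values in 1 untreated and 1 CM rat. Mx1 had the largest log2 fold change of the 9 genes in CM, 0.40 ± 0.42 (95% interval -0.48 to 1.29, edgeR adjusted p = 0.889), which was smaller than its error. Without CM rat 4 it was -0.37, in a fit that kept the highest untreated rat, untreated rat 5. Without both rats the mean was 29.61 CPM in CM (n = 3) and 29.25 CPM in untreated rats (n = 5).

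Oas1a encodes an oligoadenylate synthetase, which senses double-stranded RNA and activates RNase L. It ranged from 10.4 to 40.4 CPM in untreated rats (median 14.3), from 10.3 to 26.1 in i.p. ASC (median 22.6) and from 14 to 17.4 in i.v. ASC (median 15.2), and the CM rats had 10.6, 14.2, 17.7 and 34.7. The i.p. ASC rats fell apart into 4 at 22.01 to 26.1 CPM and 2 at 10.3 and 11.48, while the i.v. ASC rats lay close together. Its log2 fold changes were 0.09 ± 0.32, -0.26 ± 0.32 and 0.06 ± 0.36.

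Rsad2, which encodes viperin, a radical SAM enzyme that makes a chain-terminating nucleotide, was the gene with the smallest p of the 9. It ranged from 19.2 to 35.0 CPM in untreated rats (median 25.5), from 14.3 to 29.5 in i.p. ASC (median 19.4) and from 13.7 to 21.96 in i.v. ASC (median 17.7), and the CM rats had 14.5, 17.4, 22.96 and 40.6. All 6 i.v. ASC rats were below the untreated median and 4 of 6 were below every untreated rat, but the groups overlapped. The mean was 17.52 ± 3.15 CPM (SD, n = 6) after i.v. ASC, while the untreated mean was 26.5 ± 5.39 CPM (SD, n = 6), a fold of 0.661 (95% interval 0.486 to 0.899, log2 fold change -0.60 ± 0.21 SE). The edgeR p was 0.0107 before adjustment and 0.523 after, so the gene did not pass the threshold, and 5.0% of all genes had a lower level at an unadjusted p below 0.05 in this comparison. Leaving out any 1 rat kept the log2 fold change between -0.67 and -0.50. For i.p. ASC it was -0.39 ± 0.21 and for CM -0.15 ± 0.24.

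**Figure D1:**
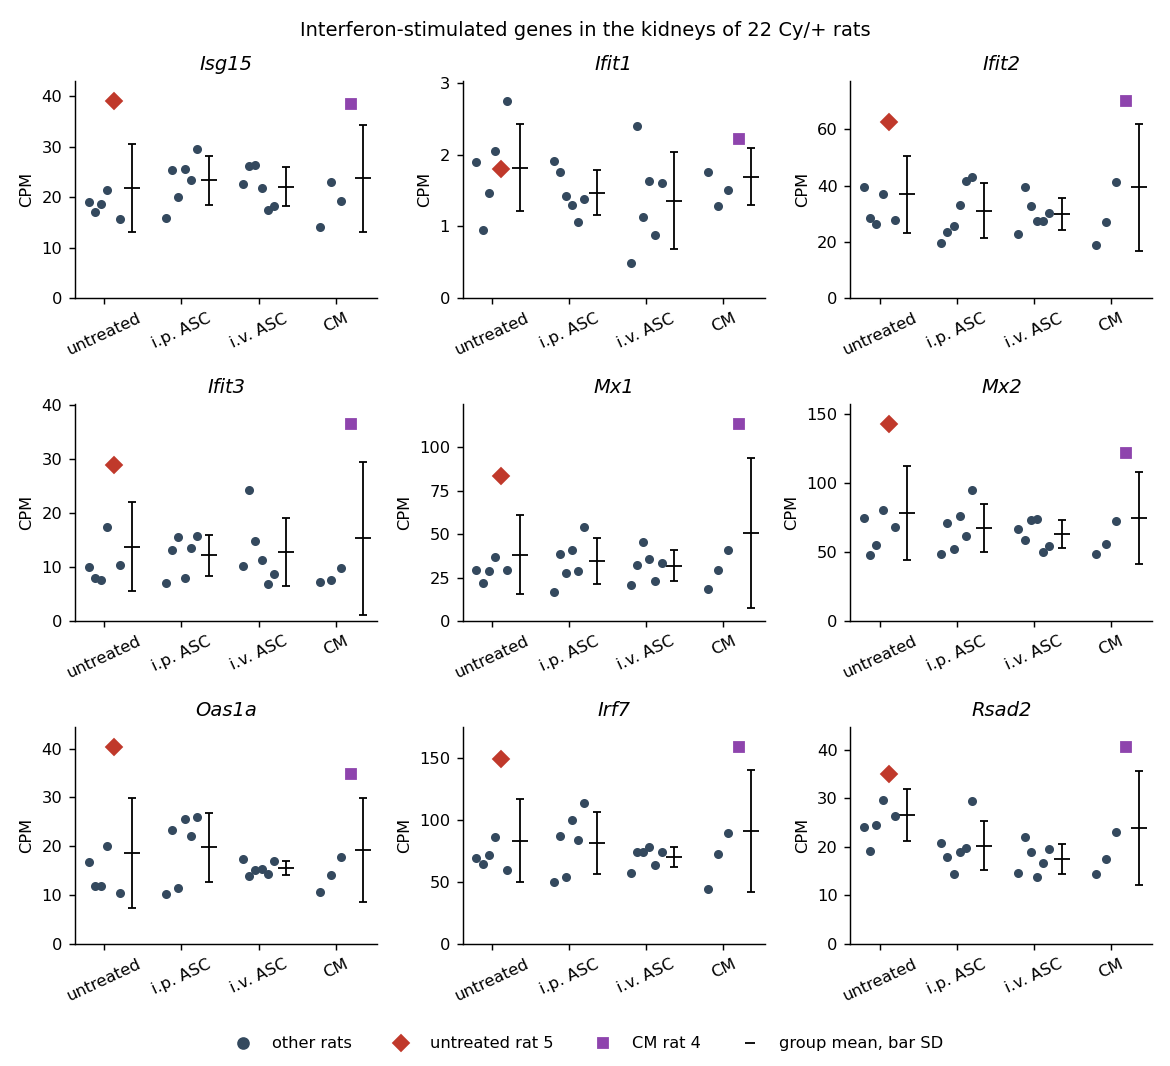
Level of each of the 9 genes in CPM (vertical axes, linear from 0) in each rat of the 4 groups, with the group mean and SD beside the points. Untreated rat 5 (diamond) and CM rat 4 (square) are the 2 highest of 22 rats for 8 of the 9 genes, all but Ifit1.

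In all 27 pairings of a gene with a treatment the treated rats overlapped the untreated rats, where 0.14% (i.p. ASC), 0.179% (i.v. ASC) and 1.42% (CM) of all genes tested had groups that did not overlap. The intervals show what the design could and could not resolve. The 95% bounds of the folds against untreated reached from 0.484 to 1.70 over the 9 genes after i.p. ASC, from 0.480 to 1.69 after i.v. ASC and from 0.571 to 2.44 after CM. A mean level 2-fold above untreated was thus beyond the upper bounds of all 9 genes in both ASC groups. A mean below 0.5 of the untreated level was within the bounds of Ifit3 after i.p. ASC (lower bound 0.484) and of Ifit1, Mx1 and Rsad2 after i.v. ASC (0.489, 0.480 and 0.486), and a level 2-fold above untreated was within those of some genes after CM. The size that could be resolved differed by gene and direction, with upper bounds after i.v. ASC from 0.899 (Rsad2) to 1.69 (Ifit3). Differences within the bounds of a gene could not be told apart.

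Single rats differed by more than the group means did. Untreated rat 5 and CM rat 4 were the 2 highest of the 22 rats for 8 of the 9 genes, against 1.21% of all genes tested (156 of 12867). These rats were singled out after their values were seen, so the counts describe them and test nothing. Untreated rat 5 was the highest of its group for 8 of 9 genes (15% of all genes) and CM rat 4 for 9 of 9 (25.2%). Isg15 reached 39.1 and 38.5 CPM in these rats and at most 29.6 in the other 20. Mx1 reached 83.3 and 114 CPM against at most 54.3, and Irf7 150 and 159 against at most 114. Relative to the median of the rest of its group, untreated rat 5 was 1.42-fold (Rsad2) to 3.39-fold (Oas1a) higher for the 8 genes and 0.951-fold for Ifit1, and CM rat 4 was 1.47-fold (Ifit1) to 4.85-fold (Ifit3) higher. The SD of log2 CPM within groups lay between the 72.6th and the 94.5th percentile of all genes for the 9 genes, from 0.38 for Rsad2 to 0.73 for Ifit3, where the median gene had 0.228.

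The same pair of rats was highest for further genes of the response. The other interferon-stimulated genes of a longer list, 41 of them tested, had both rats on top in 21 cases (51.2%), among them Oasl2, Cmpk2, Usp18, Rtp4, Oas2 and Eif2ak2. Of the signal transducers it was so for Stat2 and Irf9, which are themselves induced by interferon. Genes led by interferon gamma had both rats highest in 6 of 19 cases (31.6%), among them the chemokine gene Cxcl10. None of the 5 receptor genes and none of the 12 genes listed as nucleic acid sensors and adaptors did. That list leaves out the sensor genes Ifih1, Dhx58, Zbp1 and Eif2ak2, which were counted with the other interferon-stimulated genes. Each of these had both rats highest, so the 0 holds for the list and not for sensors as a class. Of the 6 brakes of the pathway only Usp18, which removes Isg15 from proteins, did.

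**Figure D2:**
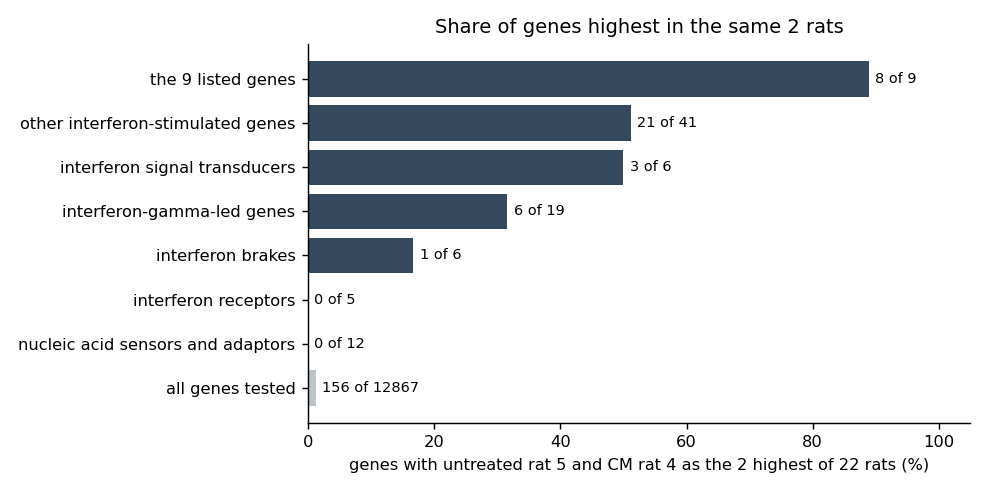
Percent of the tested genes of each list (horizontal axis, linear from 0) for which untreated rat 5 and CM rat 4 were the 2 highest of 22 rats, with the count beside each bar. The share is 8 of 9 for the listed genes, 21 of 41 for other interferon-stimulated genes and 156 of 12867 for all genes.

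**Figure D3:**
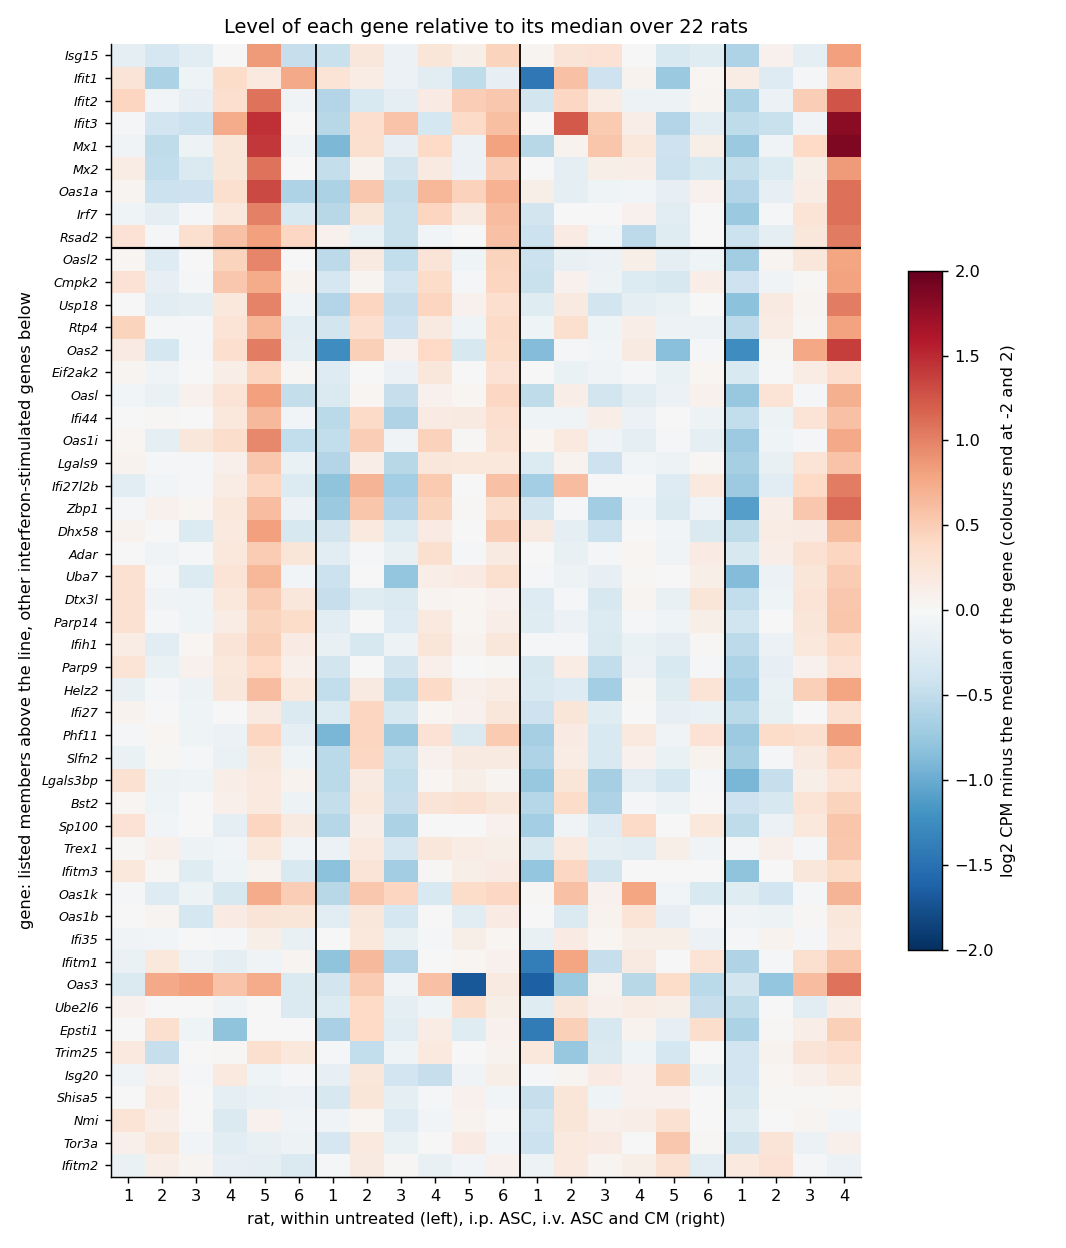
Log2 CPM of the 9 listed genes (above the line) and 41 other interferon-stimulated genes (below, ordered by likeness to the 9) in each rat, less the median of the gene over 22 rats. The columns of untreated rat 5 and CM rat 4 are red over the upper rows, and the columns of CM rat 1 and i.p. ASC rat 1 are mostly blue.

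Some markers of cell types were high in both of these rats and others in 1 of them. Summed podocyte markers were 588.0 CPM in untreated rat 5 (rank 2 of 22) and 563.7 CPM in CM rat 4 (rank 3), against a median of 334.8 in the other 20. Summed endothelial markers were 337.9 CPM (rank 5) and 366.1 CPM (rank 1), against a median of 265.1. Leukocyte and erythroid markers differed between the pair. CM rat 4 had 685.6 CPM of summed leukocyte markers (Ptprc, Cd53, Laptm5 and Coro1a), the third highest of 22, and 693.9 CPM of summed macrophage markers, the second highest, and it was the highest CM rat for 4 of 4 and 6 of 6 of these genes. Untreated rat 5 had 430.5 CPM of leukocyte markers, rank 15 of 22, against a median of 519.2 in the other 20, and 426.3 CPM of macrophage markers, rank 13. It was instead the highest of all rats in the summed erythroid markers Hbb, Hba-a1 and Alas2, at 1237 CPM against 80.1 to 799.8 in the other 20, where CM rat 4 had 269.0 CPM. For plasmacytoid dendritic cells, known as strong makers of type I interferon, only Ccr9 and Irf8 were measured. Their sum was 73.6 CPM in CM rat 4 (the highest rat) and 50.8 CPM in untreated rat 5 (rank 11). This sum was mostly Irf8, with a median of 46.6 CPM over the 22 rats against 3.76 for Ccr9. By mean log2 CPM of the pair, CM rat 4 (3.935) was below CM rat 3 (4.063) and untreated rat 6 (4.045), among others. None of these marker genes was at 0 in any rat. The part of podocyte, endothelial, blood or leukocyte content in the level of the 9 genes was not tested.

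By group, summed leukocyte markers ran from 367.5 to 631.1 CPM in untreated rats, from 327.6 to 822.5 in i.p. ASC, from 153.8 to 698.3 in i.v. ASC and from 348.3 to 685.6 in CM, with overlap throughout. Urothelial markers (Upk1a, Upk1b and relatives) reached 362.9 CPM in the i.v. ASC group, with a group median of 52.1, and at most 9.85 CPM in the other groups. The 4 rats with the lowest mean level of the 9 genes were CM rat 1, i.p. ASC rat 1, i.v. ASC rat 5 and untreated rat 2, 1 of each group. The 3 rats with the most proximal tubule signal, i.v. ASC rat 1, i.p. ASC rat 1 and CM rat 1 at 5594, 5275 and 4969 summed CPM, had ranks of 18, 21 and 22 for the mean level of the 9 genes. Next came i.p. ASC rat 3 at 4409 CPM, with rank 17, and CM rat 4 at 3577 CPM, with rank 1. By the mean log2 CPM of the same markers, CM rat 4 (8.674) and untreated rat 4 (8.666) were highest, with ranks of 1 and 4 for the 9 genes. The part of kidney region or tubule content in these levels was not tested.

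**Figure D4:**
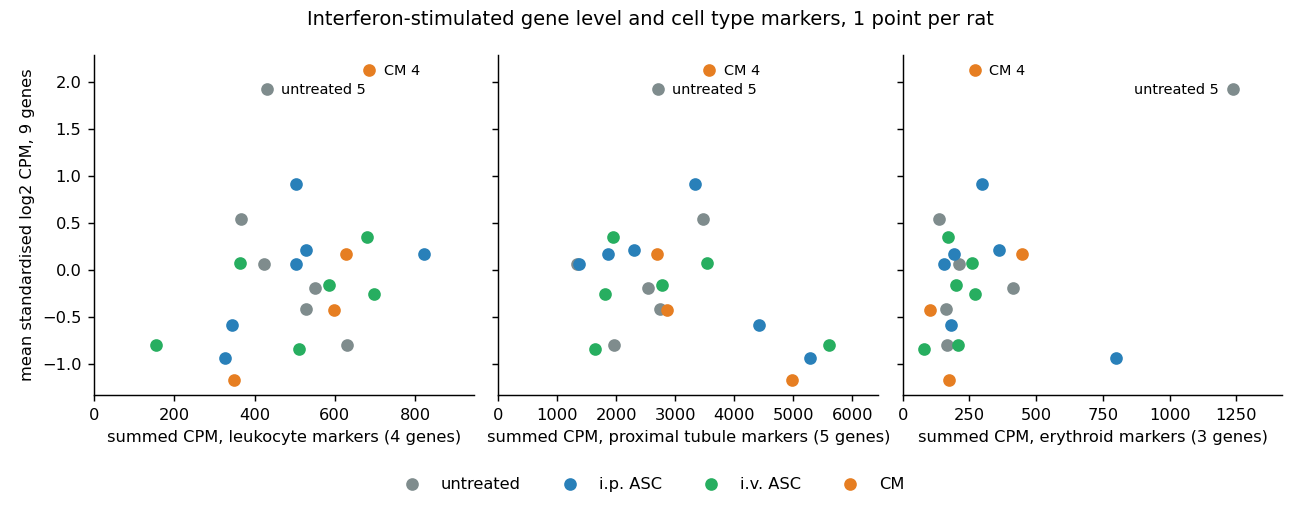
Mean standardised log2 CPM of the 9 genes (vertical axis, in SD) against the summed CPM of leukocyte, proximal tubule and erythroid markers in each of the 22 rats. CM rat 4 lies at 685.6 CPM and untreated rat 5 at 430.5 CPM of leukocyte markers, and untreated rat 5 has the most erythroid signal, 1237 CPM.

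The directions of the group differences depended on these rats, which were picked for their high values of these same genes. With all rats, the 9 genes had a median log2 fold change of -0.18 after i.p. ASC (2 higher, 7 lower), -0.26 after i.v. ASC (1 higher, 8 lower) and 0.09 after CM (6 higher, 3 lower), where 53.8%, 52.5% and 50.9% of all genes were lower. On the TPM scale the split in CM was 3 higher and 6 lower, and in i.v. ASC 0 and 9. On that scale the median of all genes was itself lower, at -0.066 after CM and -0.12 after i.v. ASC with a pseudocount of 1. The TPM splits are to be read against this shift. Without untreated rat 5 and CM rat 4 the edgeR medians of the 9 genes were 0.18 (6 higher, 3 lower), 0.0043 (5 higher, 4 lower) and -0.12 (3 higher, 6 lower). The medians after i.p. ASC and CM thus changed sign, and the median after i.v. ASC came close to 0. Leaving out the highest untreated rat raises the ASC fold changes by construction, so these fits describe the values and test nothing. No direction of the list as a whole can be given. Of all genes, 51.6%, 51.6% and 50.4% were lower in these fits. Ifit1 and Rsad2 had log2 fold changes below 0 in all 3 treatments both with and without these rats, and the values without them were -0.29, -0.50 and -0.43 for Rsad2 and -0.31, -0.43 and -0.27 for Ifit1. Again 0 of 12922 genes (0.0%) passed the adjusted threshold.

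**Figure D5:**
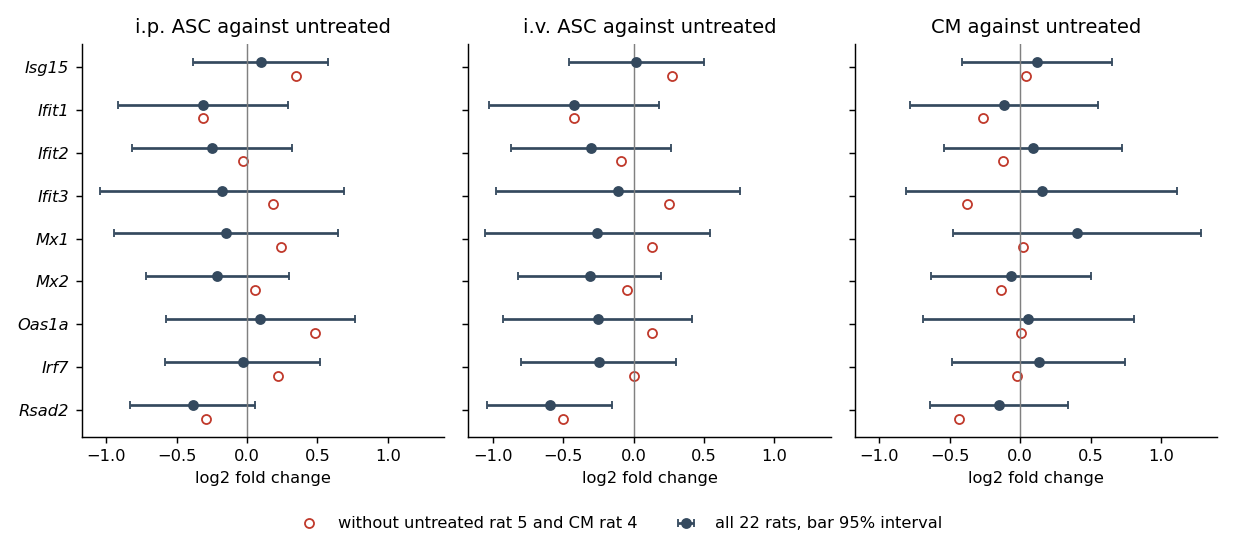
Log2 fold change of each gene against untreated (horizontal axis) after i.p. ASC, i.v. ASC and CM, as filled points with the 95% interval from all 22 rats and as open points without untreated rat 5 and CM rat 4. The filled points of Rsad2 after i.v. ASC lie at -0.60 with an interval from -1.04 to -0.15, the only interval that leaves out 0.

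The treatments were also compared with each other. The median log2 fold change of the 9 genes was -0.11 between i.v. and i.p. ASC, 0.20 between CM and i.p. ASC and 0.31 between CM and i.v. ASC, where 9 of 9 genes were higher in CM and 54.7% of all genes were. All 9 genes had an edgeR adjusted p of 0.993 in the last comparison, and their folds ran from 1.07 to 1.58 with upper bounds of 1.55 to 2.92. Without untreated rat 5 and CM rat 4 the median was -0.089, with 2 of 9 genes higher in CM. At an unadjusted p below 0.05 there were 281 (2.18%), 379 (2.95%) and 527 (4.1%) of all genes in these 3 comparisons and 0 of the 9 in each. DESeq2 called 24, 2 and 22 genes in the same order, again none of the 9.

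The wider pathway was described from lists in the same comparison of CM with i.v. ASC, the one with the largest median of the 9 genes. None of the listed genes passed the adjusted threshold. Among 41 other interferon-stimulated genes, 35 were higher and 6 lower in CM, with a median of 0.14. CM rat 4 was the highest CM rat for 38 of the 41, and without both high rats 14 were higher and 27 lower, with a median of -0.019. Between CM and untreated rats 18 were higher and 23 lower, with a median of -0.016. The lowest were Oas1k, a relative of Oas1a, at -0.19 ± 0.30 (SE) and Nmi at -0.14 ± 0.12. The highest were the oligoadenylate synthetases Oas2 at 0.77 ± 0.40 and Oas3 at 0.80 ± 0.48. Oas2 had 1.51 to 10.1 CPM in CM rats, or 19 to 128 counts, and 2.02 to 4.29 CPM in i.v. ASC rats, or 25 to 63 counts. Oas3 had 7 to 31 and 3 to 18 counts per rat in these groups. CM rat 4 was the highest of all 22 rats for both genes.

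Along the signalling chain the list medians were smaller than the 0.31 of the 9 genes. They were 0.041 for receptors, 0.10 for transducers, 0.090 for sensors and adaptors and 0.14 for brakes. Single genes were not all smaller, and Irf9, Tlr8 and Tlr9 were above the median of the 9 genes. Stat2 had a log2 fold change of 0.10 ± 0.13 (SE) and Irf9 of 0.32 ± 0.20 between CM and i.v. ASC. Stat2 had a mean of 104.6 ± 6.00 CPM (SD, n = 6) after i.v. ASC and 112.0 ± 22.1 CPM (SD, n = 4) after CM, where the spread among the CM rats was wider. Over receptors, transducers, sensors and brakes, the lowest values belonged to the brakes Socs3 (-0.17 ± 0.28) and Ptpn2 (-0.056 ± 0.10) and the highest to the endosomal receptors Tlr8 (0.54 ± 0.38) and Tlr9 (0.60 ± 0.44), which sense RNA and DNA. Tlr8 and Tlr9 were highest in CM rat 4 of all 22 rats, as was the related Tlr7, while untreated rat 5 had ranks of 14 to 16 for the 3 genes. Genes led by interferon gamma had a median of 0.12, with 15 higher and 4 lower of 19, and without both high rats a median of -0.050, with 5 higher and 14 lower.

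Against untreated, a few genes of these lists had an unadjusted p below 0.05 and are named after their values were seen. After i.v. ASC these were Oas3 (-0.93 ± 0.43), Parp9 (-0.33 ± 0.14), Parp14 (-0.30 ± 0.13), Tlr3 (-0.24 ± 0.11) and Mavs (-0.19 ± 0.074) on the lower side and Il10rb (0.15 ± 0.070) on the higher side, each with an edgeR adjusted p of 0.523. After i.p. ASC they were Dtx3l (-0.33 ± 0.15) and Ifnlr1 (-0.61 ± 0.19), with an adjusted p of 0.771. After CM they were Mavs (-0.18 ± 0.084) and Il10rb (0.20 ± 0.078), with an adjusted p of 0.711. On the lower side after i.v. ASC these were 3 of 41 other interferon-stimulated genes and 2 of 12 nucleic acid sensors and adaptors, where 5.0% of all genes were lower at this p. Of the 5 receptor genes, 1 was lower after i.p. ASC and 1 was higher after i.v. ASC and after CM.

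The ligands themselves were barely seen. Of 10 interferon genes listed, 6 were in the files and none passed the filter. Ifng had 14 counts over 8 rats, 3 of them in CM rat 4 and 1 in untreated rat 5. Ifnb1 had 1 count in all, in untreated rat 5, and Ifna5 had 0 counts in every rat, which allows up to 3 counts per library. Which interferon, if any, was present in these 2 rats was not detectable at this depth.

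The 9 genes were compared with each other and with all genes by the Pearson correlation of log2 CPM over the 22 rats, given as a description, since the rats share group and the genes share library. The 10 genes outside the list most like the mean standardised level of the 9 were Oasl2 (r = 0.919), Cmpk2 (0.914), Slfn4 (0.906), Usp18 (0.899), RT1-T24-3 (0.887), Cxcl10 (0.876), Rtp4 (0.867), Oas2 (0.866), Eif2ak2 (0.865) and RT1-S3 (0.859). Of these, 6 belong to the longer list of interferon-stimulated genes and Cxcl10 to the list led by interferon gamma, Slfn4 is a Schlafen gene, and RT1-T24-3 and RT1-S3 are MHC class I genes of the rat. Without untreated rat 5 and CM rat 4 the values for Oasl2, Slfn4 and Cmpk2 were 0.860, 0.856 and 0.842 over 20 rats, still the 3 highest of all genes, while Cxcl10 came to 0.751 and rank 29.

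Within the list, Irf7 and Mx1 were most alike (r = 0.938), followed by Oas1a and Irf7 (0.919). Irf7 was the nearest of all genes to Isg15, Ifit2, Mx1 and Oas1a. Ifit1, with only 6 to 42 counts per rat, had a median r of 0.264 to the other 8 and none of them among its 100 nearest genes. Rsad2 had 2 of 8 in its 100 nearest, and Ifit2 and Ifit3 had 7. Without the 2 high rats Ifit2 and Ifit3 had 1 and Rsad2 had 0, while Isg15, Mx1, Mx2, Oas1a and Irf7 had 4 to 6. The nearest gene to Rsad2 was Cmpk2 (0.878), a nucleotide kinase gene. Without the 2 high rats the median r of a gene to the other 8 was between 0.117 (Ifit1) and 0.749 (Irf7) over 20 rats.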

How the data were processed

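RNA of the left kidney of 22 rats was sequenced by the authors on the BGISEQ-500, and the submitters' processing notes name Trim Galore 0.6.4, kallisto 0.4.6 and the rat build rn6. For each gene and rat 2 values were deposited. The authors made an estimated count per Entrez gene without normalization, and a TPM, the count scaled for transcript length and total. The paper's text names a human transcript package, while the deposited identifiers are rat genes. Estimated counts were rounded here, since 14.1% were not whole. Symbols came from the RefSeq table of GRCr8 (17179 of 17334 genes), used for names only. How reads shared by related genes (Mx1 and Mx2, the Oas1 and Ifit families) or by overlapping genes were split is not given in the sources used here, so these values are uncertain.

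Tests used edgeR 4.0.16 in R 4.3.3, with TMM scaling, filterByExpr and 1 quasi-likelihood fit to the 4 groups, and a threshold of 0.05 on p after Benjamini-Hochberg adjustment across 12867 genes. The self-test on simulated counts for i.v. ASC against untreated recovered 200 of 200 genes changed 4-fold, with 9 of 12636 others called. Only 4-fold changes were simulated, so it does not show which smaller differences could be found. Log2 CPM used a prior count of 2. Groups came from the treatment label, and rats were numbered in accession order. No rats of a group agreed within sampling noise (chi-square per gene 7.53 to 147.08). The alternatives were the RLE size factors in edgeR, the Wald test of DESeq2 1.42.0, 2 other filters (none, with 15275 genes, or 10 counts as a minimum in each library, with 11721), a fit to 2 groups alone, limma-trend (limma 3.58.1) on log2(TPM + 1) and log2(TPM + 0.1), and the removal of each rat in turn.

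The 9 genes and all lists were chosen with earlier results of these data known. The genes named from the lists were those past the threshold or, with none past it, the 2 lowest and 2 highest in the comparison where the 9 genes had the largest median, with Stat2 and Irf9. 1 other gene that the rule names is not reported here. For likeness the 10 genes with the highest correlation were named. Each rat is a separate animal. The intervals are for the fold between groups and rest on the variation between these rats. They are not ranges of single rats.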

Additional observations from a re-analysis of the deposited data

Results flagged for a closer look

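The 9 genes in 4 groups gave 36 sets of values, and in 1 of them a rat stood apart from the others of its group by Dixon's criterion. Isg15 in untreated rat 5 had a log2 CPM of 5.295, where the other 5 untreated rats lay between 3.98 and 4.44, and its gap to the nearest was 0.652 of the range of the group. Such a value is met by chance in about 1 of 20 groups. CM rat 4, with 4 rats in its group, passed the criterion for none of the 9 genes. The erythroid markers were highest of all rats in untreated rat 5, and their part in the Isg15 value was not tested.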

How the results depend on the processing

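The number of the 9 genes past the threshold was 0 in all 6 comparisons under every alternative run, DESeq2 included. The setting with at least 10 counts in every rat gave no value for Ifit1. No paired analysis was possible because the labels give the groups no shared replicate numbers. The log2 fold changes against untreated kept their sign in 178 of 186 fits with another normalization, filter, test, scale or set of groups. The TPM scale moved the median of all genes by -0.098, -0.12 and -0.066 with a pseudocount of 1 and by -0.11, -0.13 and -0.074 with 0.1 (i.p. ASC, i.v. ASC and CM), so its values are to be read against these shifts. It turned the sign of Isg15 after i.v. ASC (-0.044 with either pseudocount) and, after CM, of Ifit2 (-0.068 and -0.081), Ifit3 (-0.081 and -0.10) and Irf7 (-0.011 and -0.013).

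Leaving out untreated rat 5 and CM rat 4 together, an alternative chosen after seeing the data, turned the sign in 11 of 27 values. After i.p. ASC these were Ifit3 (0.18), Mx1 (0.24), Mx2 (0.053) and Irf7 (0.22), after i.v. ASC Ifit3 (0.25), Mx1 (0.13), Oas1a (0.13) and Irf7 (0.0043), and after CM Ifit2 (-0.12), Ifit3 (-0.38) and Irf7 (-0.025). Leaving out 1 rat at a time turned the sign in 36 of 306 fits. Fits without untreated rat 5 or CM rat 4 were among these, but so were fits without other rats. For Isg15 after i.v. ASC the sign turned in 6 of 12 fits, and for Oas1a after i.p. ASC in 4 of 12. The ranges for i.p. ASC were -0.30 to 0.18 for Ifit3, -0.33 to 0.24 for Mx1, -0.33 to 0.051 for Mx2, -0.029 to 0.48 for Oas1a and -0.15 to 0.22 for Irf7. For i.v. ASC they were -0.061 to 0.27 for Isg15, -0.40 to 0.25 for Ifit3, -0.38 to 0.13 for Mx1, -0.38 to 0.13 for Oas1a and -0.33 to 0.00081 for Irf7. For CM they were -0.22 to 0.37 for Isg15, -0.27 to 0.045 for Ifit1, -0.34 to 0.31 for Ifit2, -0.74 to 0.51 for Ifit3, -0.37 to 0.79 for Mx1, -0.40 to 0.20 for Mx2, -0.39 to 0.44 for Oas1a, -0.28 to 0.38 for Irf7 and -0.53 to 0.020 for Rsad2. The ratios of group means to the untreated mean moved by less than the spread between rats when TPM replaced CPM, in 27 of 27 values. The spread here was a full SD of the treated group. That is a wide bar, so the count says little, and the TPM scale still turned the signs given above. With 4 to 6 rats a group and the spread of these genes, the intervals in CM were the widest.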
